A study of Homo sapiens with 6 samples.

Results

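The integrin subunits described here are the 10 genes ITGA2, ITGA3, ITGA5, ITGA6, ITGAV, ITGB1, ITGB3, ITGB4, ITGB5 and ITGB8, chosen by symbol out of 21503 genes with counts. All 10 passed the filter on low counts and were among the 19430 genes tested. They were measured by bulk RNA-seq in UMUC3, a long-established line of human bladder carcinoma cells, grown for 14 days after orthotopic transplantation into the bladders of C57 nude mice, which lack a thymus and most T cells. The libraries numbered 3 from UMUC3 cells with GANAB knockdown and 3 from control UMUC3 cells; both groups shared the cell line, the host strain and the time in the bladder, while the sources used here give neither the knockdown method nor the control construct nor the number of clones. Nothing in the labels ties libraries to separate mice, so each p-value speaks only to the variation among these samples, part or all of which may be technical.

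Integrins are heterodimers of an alpha and a beta subunit that span the cell membrane, bind extracellular matrix outside the cell and link to the actin cytoskeleton, or to keratin filaments, inside it. The alpha subunit largely sets the ligand, and a beta subunit can pair with several alpha subunits. Integrin subunits carry many N-glycans and fold in the endoplasmic reticulum, where GANAB, the catalytic alpha subunit of glucosidase II, trims the glucose residues of newly attached N-glycans.

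GANAB stood at 231, 238 and 231 CPM in knockdown libraries 1, 2 and 3, against 685, 825 and 661 CPM in control libraries 1, 2 and 3 (CPM are estimated counts scaled to a common library size by TMM). GANAB was lower in knockdown by 3.10-fold (log2 fold change -1.63, SE 0.141, edgeR adjusted p = 0.00239). Knockdown libraries held 36619291 to 40039584 counts and control libraries 11737837 to 36381218. The control libraries differed far more among themselves: the biological coefficient of variation was 10.7% in knockdown and 53.5% in control. In control library 1 the mitochondrial ribosomal RNA MT-RNR2 took 17.5% of counts, and the most abundant gene of the other libraries took 1.27% to 2.02%. Of the epithelial markers, UPK3A and KRT20 were at 0 in every library, CDH1 was at most 0.525 TPM in knockdown and at most 0.461 TPM in control, and KRT18, the most abundant, lay at 195 to 207 TPM in knockdown and 87.6 to 254 TPM in control (TPM is a level scaled for transcript length). The sum of the epithelial list was 400.3 to 426 TPM in knockdown and 179 to 475 TPM in control. EdgeR called 1 of 11 tested markers, UPK1A, higher, beside 4.59% of all genes. The log2 fold change was positive in 9 of the 11 (median 0.50) and negative in 2, KRT7 (-1.11) and PPARG (-1.12). DESeq2 called 3 of 12 higher and limma-voom 2 of 11, beside 9.07% and 8.76% of all genes.

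Across the transcriptome, 8.31% of tested genes passed the threshold of 0.05 on the adjusted p, made up of 4.59% higher in knockdown and 3.72% lower. Of the 10 integrin subunits, 1 rose (ITGA6, the laminin-binding alpha6 subunit), 1 fell (ITGB5, the beta5 partner of alphaV) and 8 did not pass. The median log2 fold change of the 10 was 0.04, beside 0.03 over all genes tested. In 3 of the 10 the knockdown and control CPM did not overlap, ITGA3 being the third, and the groups did not overlap in 37.6% of all genes tested.

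**Figure D1:**
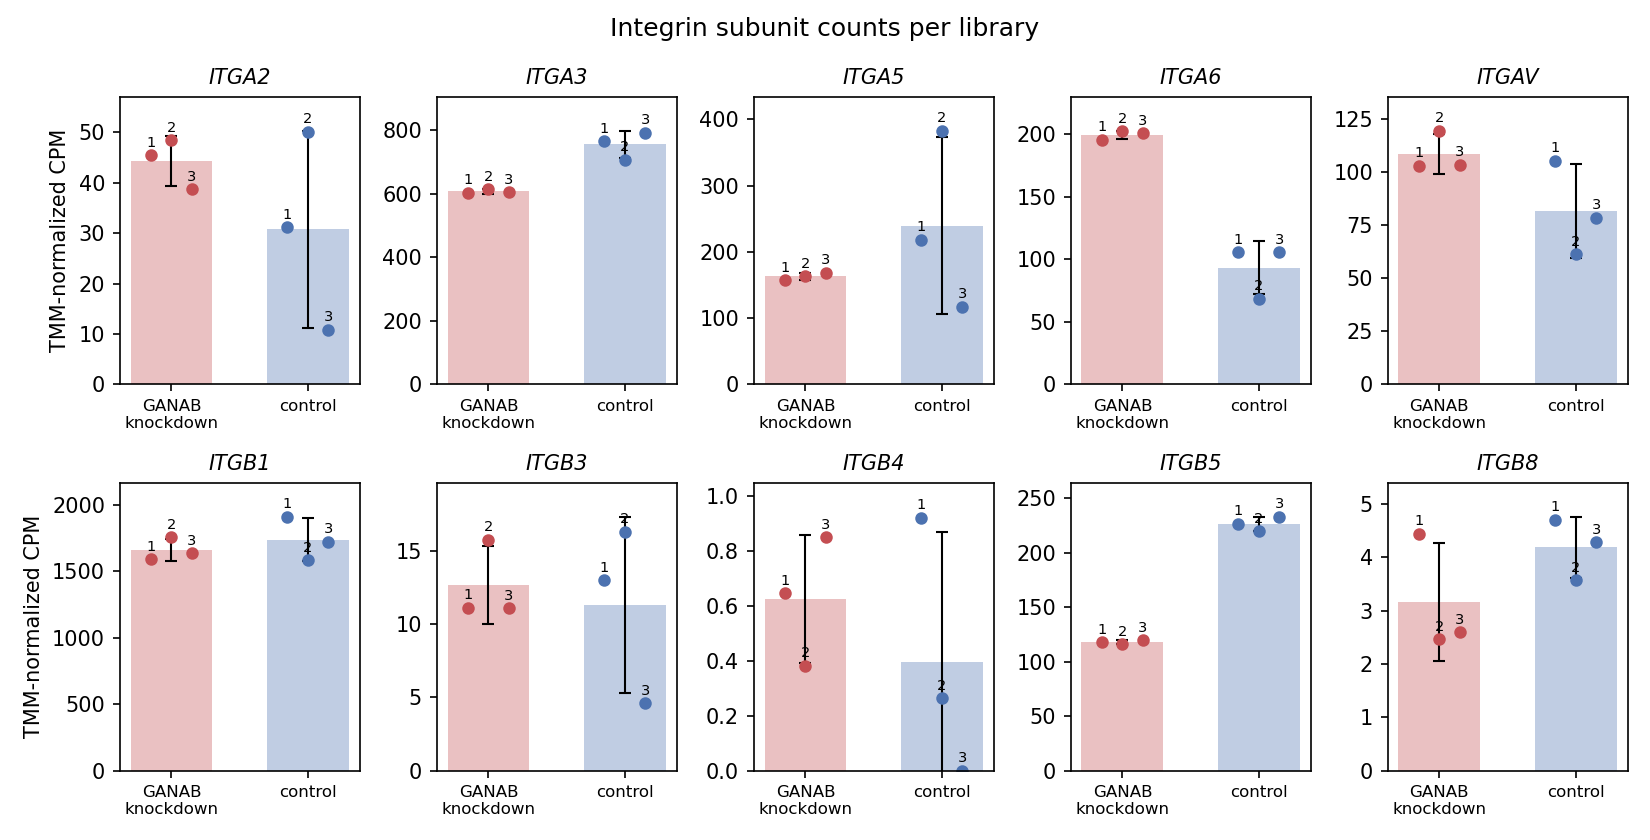
TMM-normalized CPM of each integrin subunit, with GANAB knockdown on the left and control on the right of each panel; points are libraries marked by number, bars are means and error bars are SDs of 3 libraries. ITGA6 points are higher and ITGB5 points lower in all 3 knockdown libraries than in all 3 control libraries. In ITGA2, ITGA5, ITGB1, ITGB3 and ITGB4 the control points run from below to above the knockdown points.

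Promoter sequence was available for 7 of the 10 subunits in the RefSeq promoter table (GRCh38.p14), and the windows of ITGA6 and ITGB5 are shown because these subunits moved in opposite directions. RefSeq gives several starts for each, 2 windows for ITGA6 and 3 for ITGB5, and the one nearest the start of a principal coding transcript in GENCODE was taken (31 bases away for ITGA6 and 68 for ITGB5); other transcripts begin farther upstream, so both windows lie wholly or mostly within the gene's outer bounds. Each window is the 250 bases before the start chosen, given 5′ to 3′ on the gene's strand, with GC boxes (GGGCGG or its reverse complement CCGCCC) in capitals. The ITGA6 window is chr2:172427336-172427585, plus strand, and the ITGB5 window is chr3:124887366-124887615, minus strand.
ITGA6: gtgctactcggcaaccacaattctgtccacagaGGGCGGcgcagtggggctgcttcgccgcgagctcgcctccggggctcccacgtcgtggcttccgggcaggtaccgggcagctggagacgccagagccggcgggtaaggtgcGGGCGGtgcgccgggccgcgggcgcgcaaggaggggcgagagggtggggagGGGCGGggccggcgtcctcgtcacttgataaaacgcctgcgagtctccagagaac
ITGB5: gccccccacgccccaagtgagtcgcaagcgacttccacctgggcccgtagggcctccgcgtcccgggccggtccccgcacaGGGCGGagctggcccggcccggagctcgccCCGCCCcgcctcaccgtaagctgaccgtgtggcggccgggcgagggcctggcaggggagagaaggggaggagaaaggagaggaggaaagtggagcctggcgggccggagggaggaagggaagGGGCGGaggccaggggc
Both windows held 3 GC boxes, so this feature did not separate the subunit that rose from the one that fell. A GC box was present in 6 of the 7 subunit windows (ITGAV had none) and in 42.6% of the 35116 windows of the same length. CCAAT (or ATTGG) was in 1 of the 7, ITGB8, and in 32% of all windows. The AP-1 motif TGANTCA was in 0 of the 7 and 6.57% of all windows, and TATAAA, on either strand, in 0 of the 7 and 10.7% of all windows. Both strands were searched, no motif contains another, and a match describes the window only.

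Laminin receptors are formed by the alpha3 and alpha6 subunits. ITGA6 (chromosome 2, 172427354 to 172506282, plus strand, GRCh38) encodes alpha6, which pairs with beta1 or, in hemidesmosomes, with beta4. ITGA6 stood at 196, 202 and 201 CPM in knockdown libraries 1, 2 and 3, against 106, 68.5 and 106 CPM in control libraries 1, 2 and 3. Every knockdown library was above every control library, and control library 2 was the lowest. ITGA6 rose 2.14-fold (log2 fold change 1.10, SE 0.189, edgeR adjusted p = 0.0184). The call held without any 1 control library, and was lost without knockdown library 1, 2 or 3 (adjusted p = 0.114, 0.109 and 0.113) at log2 fold changes of 1.09 to 1.11. In a bulk library, more cells of a type and more RNA per cell cannot be told apart. Antisense genes overlap ITGA6, and it is not stated that counting used strand; AC078883.1, the more abundant of those with counts, was at 0.153 to 0.744 CPM in knockdown and 1.15 to 5.89 CPM in control.

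ITGA3 (chromosome 17, 50055968 to 50090481, plus strand) encodes alpha3, which pairs with beta1 and was the most abundant alpha subunit. ITGA3 stood at 603, 616 and 605 CPM in knockdown libraries 1, 2 and 3, against 767, 708 and 794 CPM in control libraries 1, 2 and 3. The groups did not overlap, but the difference did not pass (log2 fold change -0.31, SE 0.124, edgeR adjusted p = 0.159, unadjusted p = 0.0366). ITGA3 passed as lower without control library 2 (adjusted p = 0.0137), with DESeq2 (0.0225) and with limma-voom quality weights (0.0128). On the TPM scale ITGA3 averaged 203 ± 3.10 TPM in knockdown and 206 ± 43.5 TPM in control (SD, n = 3 each) (log2 fold change 0.0037 on log2(TPM + 1), so the sign turned on that scale). The summed TPM of both laminin-binding alpha subunits was 255 ± 4.75 in knockdown and 225 ± 44.1 in control. Within that sum ITGA6 took 20.3 ± 0.276% in knockdown and 8.86 ± 2.36% in control.

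ITGA2 (chromosome 5, 52989326 to 53094779, plus strand) encodes alpha2, the collagen-binding partner of beta1. ITGA2 stood at 45.5, 48.5 and 38.8 CPM in knockdown libraries 1, 2 and 3, against 31.2, 50.2 and 10.9 CPM in control libraries 1, 2 and 3. Control library 2 was above all knockdown libraries and the other two were below them, a 4.62-fold range within control. The log2 fold change was 0.52 (95% interval -0.55 to 1.59, edgeR adjusted p = 0.533).

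ITGA5 and ITGAV encode subunits of integrins that recognise the RGD motif of matrix proteins such as fibronectin. ITGA5 (chromosome 12, 54395261 to 54419460, minus strand), the alpha5 fibronectin receptor subunit, stood at 157, 163 and 168 CPM in knockdown libraries 1, 2 and 3, against 218 CPM, 383 CPM and 117 CPM in control libraries 1, 2 and 3. The 3 knockdown values lay inside the control range, whose ends were 3.26-fold apart. The log2 fold change of ITGA5 was -0.56 (95% interval -1.43 to 0.31, edgeR adjusted p = 0.398), and it was -0.05 without control library 2 (adjusted p = 0.903).

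ITGAV (chromosome 2, 186590065 to 186680901, plus strand) encodes alphaV, which pairs with beta1, beta3, beta5 and beta8. ITGAV stood at 103, 119.8 and 104 CPM in knockdown libraries 1, 2 and 3, against 106, 61.3 and 78.6 CPM in control libraries 1, 2 and 3. Control library 1 lay between the knockdown libraries and the other two control libraries below them. ITGAV had a log2 fold change of 0.41 (95% interval -0.07 to 0.90, edgeR adjusted p = 0.262). Without control library 1 it was 0.62 (adjusted p = 0.0644), and without control library 2 it was 0.24 (adjusted p = 0.235). On log2(TPM + 1) it was 0.82 (limma adjusted p = 0.115).

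ITGB1 (chromosome 10, 32900319 to 33005792, minus strand) encodes beta1, the shared partner of alpha2, alpha3, alpha5, alpha6 and alphaV among these subunits. ITGB1 stood at 1591, 1755 and 1635 CPM in knockdown libraries 1, 2 and 3, against 1909, 1583 and 1722 CPM in control libraries 1, 2 and 3. The groups overlapped. ITGB1 had a log2 fold change of -0.07 (95% interval -0.39 to 0.26, edgeR adjusted p = 0.816), which was 0.15 on log2(TPM + 1), where the median of all genes lay at 0.23. Its pseudogene ITGB1P1, all of whose 579 stretches of 31 bases also occur in ITGB1 transcripts, had at most 2.95% of the counts of ITGB1 in any library. The division of reads between the 2 genes is uncertain.

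ITGB5 (chromosome 3, 124761948 to 124901418, minus strand) encodes beta5, which pairs with alphaV in a vitronectin receptor and in the activation of latent TGF-beta. ITGB5 stood at 118, 116 and 119.9 CPM in knockdown libraries 1, 2 and 3, against 227, 219.9 and 233 CPM in control libraries 1, 2 and 3. Both groups were tight and far apart, and the control CV of 2.87% was the smallest of any subunit. ITGB5 fell 1.92-fold (log2 fold change -0.94, SE 0.117, edgeR adjusted p = 0.00709). The call was lost without knockdown library 1, 2 or 3 (adjusted p = 0.0887, 0.0862 and 0.0889), at log2 fold changes of -0.95 to -0.92, and held without any 1 control library. On the TPM scale ITGB5 averaged 67.1 ± 8.82 TPM in knockdown and 113 ± 20.4 TPM in control, and the limma test on log2(TPM + 1) did not pass (log2 fold change -0.73, adjusted p = 0.173).

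The other beta subunits were scarce. ITGB3 (chromosome 17, 47253846 to 47311816, plus strand), whose beta3 product pairs with alphaV in a vitronectin receptor, stood at 11.1, 15.8 and 11.1 CPM in knockdown libraries 1, 2 and 3, against 13.0, 16.3 and 4.61 CPM in control libraries 1, 2 and 3. All knockdown values lay inside the control range (log2 fold change 0.16, 95% interval -0.84 to 1.15, edgeR adjusted p = 0.864), and the sign turned without control library 3 (-0.26) or without knockdown library 2 (-0.03). ITGB3 shares 51.0% of its 31-base stretches with AC068234.1, an overlapping coding gene on the same strand, so its counts are uncertain. The sum of both genes was 12.7, 16.0 and 12.7 CPM in knockdown libraries 1, 2 and 3, against 13.0, 16.3 and 7.33 CPM in control libraries 1, 2 and 3, again with all knockdown values inside the control range.

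ITGB8 (chromosome 7, 20330702 to 20415754, plus strand), whose beta8 product pairs with alphaV and binds latent TGF-beta, stood at 4.44, 2.47 and 2.59 CPM in knockdown libraries 1, 2 and 3, against 4.71, 3.57 and 4.28 CPM in control libraries 1, 2 and 3. It was the 1 subunit with the larger CV in knockdown, 34.9% against 13.7% in control. The log2 fold change was -0.40 (95% interval -1.23 to 0.43, edgeR adjusted p = 0.532). ITGB4 (chromosome 17, 75721328 to 75757818, plus strand), which encodes the beta4 subunit of the hemidesmosome, had 26, 15 and 36 counts in knockdown libraries 1, 2 and 3, against 25, 5 and 0 counts in control libraries 1, 2 and 3. ITGB4 was thus at the limit of detection, and its log2 fold change of 0.57 had a 95% interval from -1.87 to 3.01 (edgeR adjusted p = 0.784). It overlaps GALK1 on the opposite strand, which stood at 19.2 to 19.6 CPM in knockdown and 12.3 to 43.9 CPM in control.

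**Figure D2:**
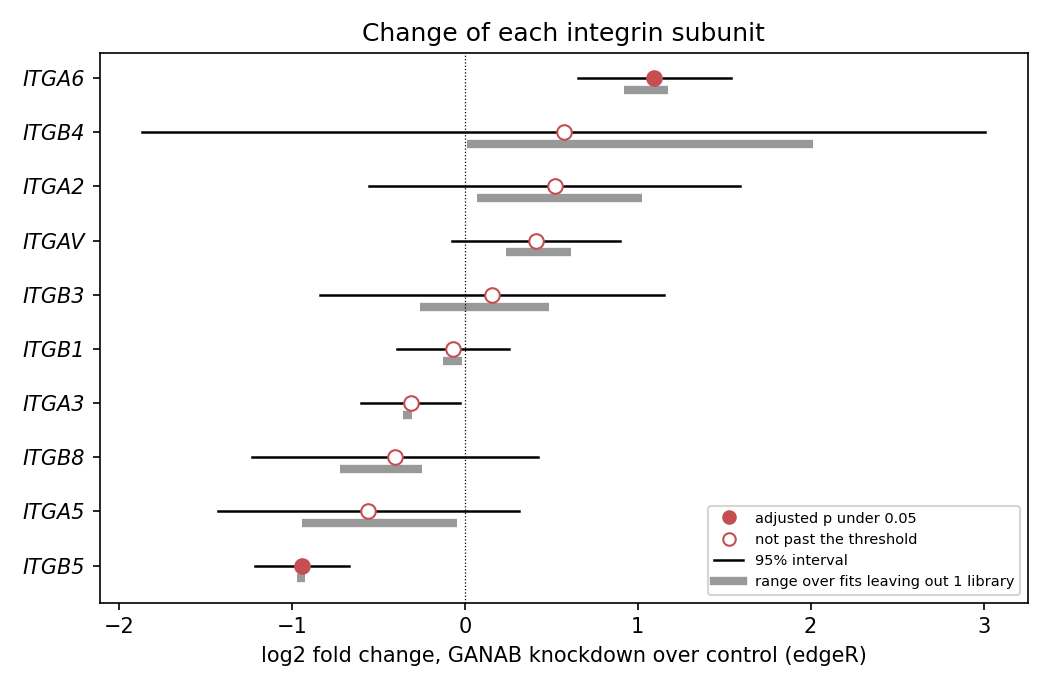
Log2 fold change of each integrin subunit, GANAB knockdown over control, from the edgeR fit; points are estimates (filled where the adjusted p was under 0.05), thin lines are 95% intervals and grey bars are the range over the 6 fits that each leave out 1 library. The grey bar is narrowest for ITGA3 and ITGB5 (-0.97 to -0.92) and widest for ITGB4 (0.01 to 2.02), and that of ITGB3 crosses 0.

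The spread between libraries differed between the groups for most subunits. The CV was larger in control than in knockdown for 9 of the 10, with a median CV of 6.89% in knockdown and 25.2% in control. ITGA2, ITGA5 and ITGB3 shared 1 order of the control libraries, with library 2 highest and library 3 lowest. ITGA6, ITGAV, ITGB1 and ITGB8 shared another, with library 1 highest and library 2 lowest. The 2 subunits whose profiles over the 6 libraries lay closest were ITGA3 and ITGB1, at a Euclidean distance of 0.35 on centred log2 CPM, followed by ITGA2 and ITGB3 at 0.69.

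Levels of different subunits were compared per length, in TPM. In knockdown the order of mean TPM was ITGB1 (622), ITGA3 (203), ITGB5 (67.1), ITGA5 (64.0), ITGA6 (51.8), ITGAV (27.1), ITGA2 (7.73), ITGB3 (2.87), ITGB8 (0.726) and ITGB4 (0.381), and the ranges of neighbours overlapped only for ITGB5 with ITGA5. In control the order of mean TPM was the same, ITGB1 (563), ITGA3 (206), ITGB5 (113), ITGA5 (79.3), ITGA6 (19.5), ITGAV (15.2), ITGA2 (4.46), ITGB3 (2.17), ITGB8 (0.845) and ITGB4 (0.171). There the ranges overlapped for ITGB5 with ITGA5, ITGA6 with ITGAV, and ITGA2 with ITGB3. These ranges pool libraries that differed from one another. Within every control library ITGA6 was above ITGAV, and ITGA2 was above ITGB3. Among neighbours in this order, only ITGB5 and ITGA5 changed places between libraries, in knockdown and in control.

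As a share of the summed TPM of the 5 alpha subunits, ITGA6 took 14.7 ± 0.274% in knockdown and 6.33 ± 2.16% in control (SD, n = 3 each). ITGA3 took 57.4 ± 0.0943% in knockdown and 63.9 ± 4.96% in control, with the control libraries between 58.7% and 68.6%. Of the 5 beta subunits, ITGB5 took 9.73 ± 1.60% in knockdown and 16.6 ± 1.45% in control. ITGB1 took 89.7 ± 1.54% in knockdown and 82.9 ± 1.60% in control. These shares are fixed to sum to the whole, so a lower share of ITGB5 is a higher share of ITGB1.

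**Figure D3:**
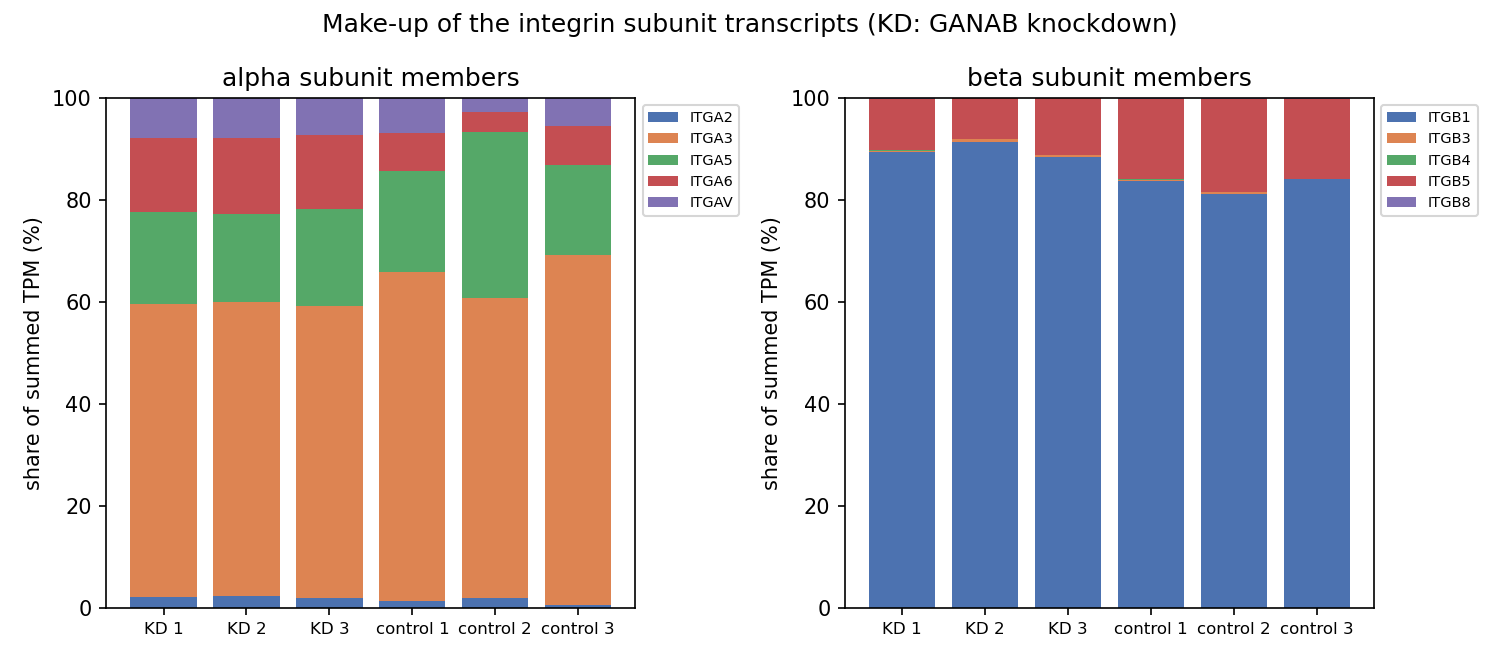
Share (%) of the summed TPM of the 5 alpha subunits (left panel) and of the 5 beta subunits (right panel) in each library, GANAB knockdown libraries (KD) first and control libraries after them. The ITGA6 band is wider in the 3 knockdown bars (14.4% to 14.9%) than in the 3 control bars (3.84% to 7.72%), and the ITGB5 band is narrower (7.98% to 11.1% in knockdown, 15.7% to 18.3% in control).

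The ratio of alpha to beta transcripts was compared for 8 known pairs within each library, which cancels the library scale. With 3 libraries against 3, the smallest p the exact 2-sided permutation test allows is 0.1. The ITGAV to ITGB5 ratio was 0.406, 0.486 and 0.339 in knockdown libraries 1, 2 and 3, against 0.189, 0.0882 and 0.145 in control libraries 1, 2 and 3. It was 3.03-fold higher in knockdown (log2 difference 1.60, exact permutation p = 0.1, adjusted over the 8 pairs 0.2). The ITGA6 to ITGB1 ratio was 0.0867, 0.0803 and 0.0835 in knockdown libraries 1, 2 and 3, against 0.0382, 0.0276 and 0.0384 in control libraries 1, 2 and 3, and was 2.43-fold higher in knockdown (exact permutation p = 0.1, adjusted 0.2). ITGAV to ITGB8 (2.17-fold higher) and ITGAV to ITGB1 (1.63-fold higher) also showed no overlap, at the same p and adjusted p. The 3 ratios with ITGAV share its values, so they are not separate results. ITGAV alone did not overlap in TPM (25.7 to 28.4 in knockdown, 11.2 to 17.5 in control), though it did in CPM. With CPM the log2 differences were smaller, at 1.39 for ITGAV to ITGB5, 0.89 for ITGAV to ITGB8 and 0.51 for ITGAV to ITGB1. No pair passed an adjusted p of 0.05, which this design cannot reach.

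The other 4 ratios overlapped between the groups in TPM. The log2 difference was -0.15 for ITGA3 to ITGB1 (exact permutation p = 0.3), 0.90 for ITGA2 to ITGB1 (exact permutation p = 0.4), -0.31 for ITGA5 to ITGB1 (exact permutation p = 0.9) and 0.30 for ITGAV to ITGB3 (exact permutation p = 0.8). Without control library 2 the signs of the last 2 turned, to 0.12 for ITGA5 to ITGB1 and -0.36 for ITGAV to ITGB3. With CPM the ITGA3 to ITGB1 ratio did not overlap (log2 difference -0.25, exact permutation p = 0.1).

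**Figure D4:**
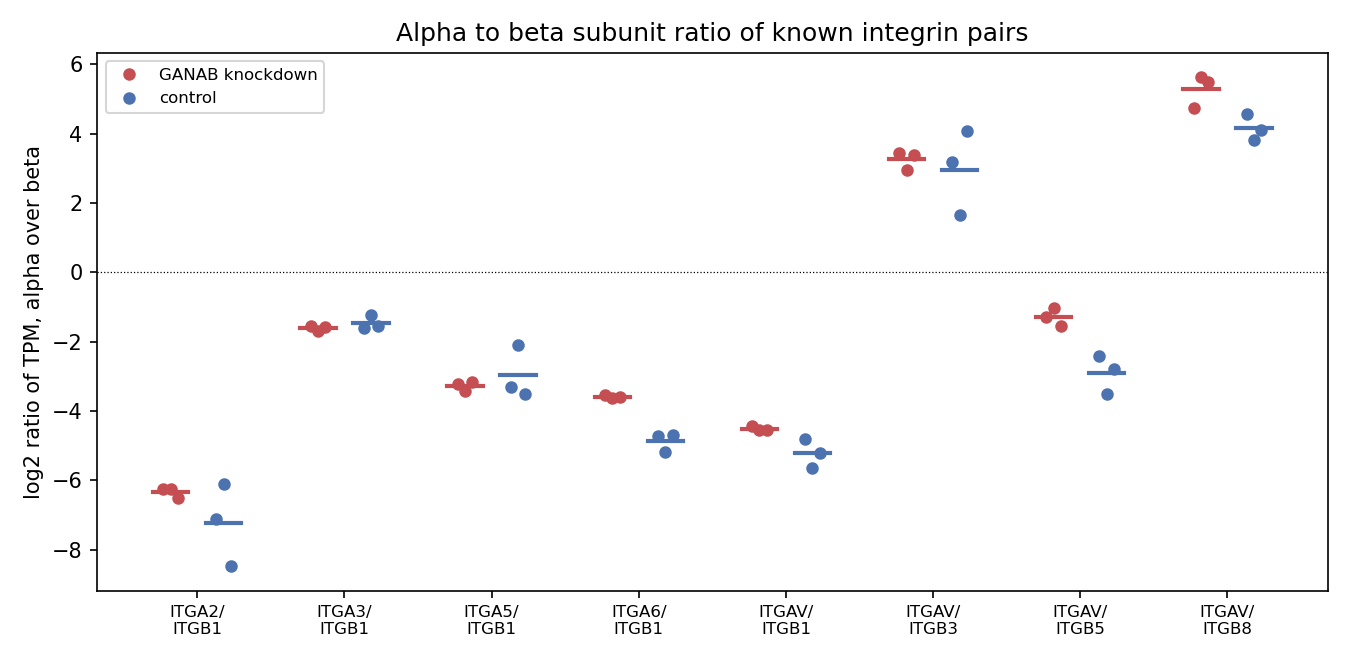
Log2 ratio of alpha to beta subunit TPM for 8 known integrin pairs, GANAB knockdown on the left and control on the right of each pair; points are libraries and horizontal lines are means. The points of the groups do not overlap for ITGA6 to ITGB1, ITGAV to ITGB1, ITGAV to ITGB5 and ITGAV to ITGB8, where knockdown is higher.

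For the 3 subunits with the smallest p, the genes outside the family with the most similar profile over the 6 libraries were found by the Euclidean distance of centred log2 CPM. For ITGB5 they were MTAP (distance 0.133), MCM6 (0.145) and TRIP13 (0.158). MTAP, a methionine salvage enzyme, lay at 0.636 to 0.670 CPM in knockdown and 1.21 to 1.32 CPM in control. MCM6, a subunit of the replicative helicase, lay at 45.9 to 48.3 CPM in knockdown and 94.1 to 96.4 CPM in control. MTAP did not pass (edgeR adjusted p = 0.266), while MCM6 (0.00546) and TRIP13 (0.0112) did. For ITGA6 they included DMPK (0.144) and the pseudogene EEF1A1P12 (0.150). DMPK, a protein kinase, lay at 85.0 to 89.5 CPM in knockdown and 32.8 to 49.2 CPM in control. For ITGA3 they were HNRNPU (0.0489), LSM14B (0.0769) and HSPD1 (0.0789). None of the 3 passed in edgeR with all libraries (adjusted p = 0.131 to 0.196), while all 3 passed without control library 2 (0.00972 to 0.0206). HNRNPU and HSPD1 also passed with DESeq2 (0.0459 and 0.0124) and limma-voom (0.0177 and 0.00914). All these genes were chosen for their likeness to a subunit in the same libraries, so calls like those of the subunit are not separate support.

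Among the other integrin subunits, 12 were tested, of which 1 rose and 2 fell by edgeR (median log2 fold change 0.23). The shares over all genes tested were 4.59% higher and 3.72% lower. DESeq2 called 1 higher and 2 lower of 14, beside 9.07% of all genes higher and 8.4% lower. Limma-voom called 1 higher and 2 lower of 12, beside 8.76% of all genes higher and 10.4% lower. ITGB2, the beta2 subunit of leukocyte integrins, stood at 1.74, 1.83 and 1.55 CPM in knockdown libraries 1, 2 and 3, against 5.63, 8.94 and 6.75 CPM in control libraries 1, 2 and 3, and fell 4.15-fold (edgeR adjusted p = 0.0132). ITGA4, the alpha4 subunit, fell to 0.0496, 0.0255 and 0 CPM in knockdown libraries 1, 2 and 3, against 4.49, 0.841 and 2.88 CPM in control libraries 1, 2 and 3 (edgeR adjusted p = 0.0146). ITGB7, the beta7 partner of alpha4, was higher at 0.769, 0.713 and 0.448 CPM in knockdown libraries 1, 2 and 3, against 0.0368, 0 and 0 CPM in control libraries 1, 2 and 3 (edgeR adjusted p = 0.0337). ITGB2 and ITGA4 were lost without any 1 knockdown library (adjusted p = 0.0905 to 0.111), and ITGB7 was lost without any 1 library other than control library 2 (0.0504 to 0.183). Limma-voom did not call ITGB7 (adjusted p = 0.0621), so its 1 higher call was a subunit not named here. ITGB2 was also lost on log2(TPM + 1) (limma adjusted p = 0.0951). The summed TPM of the leukocyte markers was 47.3 to 51.8 in knockdown and 55.5 to 210 in control, most of it CD68. Of 5 tested, edgeR called 0, beside 8.31% of all genes, with 1 lower at an unadjusted p under 0.05. DESeq2 called 1 lower of 6 and limma-voom 1 lower of 5, beside 8.4% and 10.4% of all genes. The list was mixed, with 3 log2 fold changes positive and 2 negative in edgeR (median 0.45). CD68 had a log2 fold change of -1.43 (edgeR adjusted p = 0.0958). CSF1R had one of 2.05 (edgeR adjusted p = 0.235), at under 1 CPM in every library. The part of leukocytes in the ITGB2 and ITGA4 values was not tested.

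Of the matrix ligands of integrins, 4 of 23 tested rose and 0 fell by edgeR (median log2 fold change 0.73). On the lower side 1 had an unadjusted p under 0.05. EdgeR called 4.59% of all genes higher and 3.72% lower. DESeq2 called 5 higher and 1 lower of 22 tested, beside 9.07% of all genes higher and 8.4% lower with that tool. Limma-voom called 5 higher and 1 lower of 23, beside 8.76% of all genes higher and 10.4% lower. COL6A1, a chain of collagen VI, stood at 144, 138 and 139 CPM in knockdown libraries 1, 2 and 3, against 39.6, 30.6 and 38.1 CPM in control libraries 1, 2 and 3, a 3.88-fold rise (edgeR adjusted p = 0.00139) that passed in all 6 fits leaving out 1 library. TGFB3, whose latent form carries an RGD motif bound by alphaV integrins, rose 3.77-fold (19.6 ± 0.297 CPM in knockdown, 5.17 ± 1.15 CPM in control, edgeR adjusted p = 0.0057). LAMB2, a laminin beta chain, rose 1.94-fold (416 ± 7.65 CPM in knockdown, 214 ± 15.1 CPM in control, edgeR adjusted p = 0.00834). TNC, the matrix glycoprotein tenascin-C, rose 1.77-fold (211 ± 3.73 CPM in knockdown, 119.5 ± 5.53 CPM in control, edgeR adjusted p = 0.0114). The last 3 were each lost without any 1 knockdown library, at adjusted p = 0.0603 to 0.105. TNC was also lost on log2(TPM + 1) (limma adjusted p = 0.0801).

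Of the membrane partners of integrins, 2 of 12 tested rose and 1 fell by edgeR (median log2 fold change -0.11). Of all genes tested, 4.59% were called higher and 3.72% lower. DESeq2 called 2 higher and 2 lower of the 12, beside 9.07% of all genes higher and 8.4% lower. Limma-voom called 4 higher and 2 lower, beside 8.76% of all genes higher and 10.4% lower. CAV1, the caveolar coat protein caveolin-1, rose 2.97-fold (912 ± 5.21 CPM in knockdown, 307 ± 83.8 CPM in control, edgeR adjusted p = 0.00825). CD9, a tetraspanin, rose 1.63-fold (321 ± 9.10 CPM in knockdown, 197 ± 40.0 CPM in control, edgeR adjusted p = 0.0481). PLAUR, the urokinase receptor, fell 1.45-fold (91.1 ± 0.933 CPM in knockdown, 132 ± 7.15 CPM in control, edgeR adjusted p = 0.0353). CD47, which associates with beta3 integrins, had a log2 fold change of 0.35 and did not pass (edgeR adjusted p = 0.118), though it did without control library 2 (0.026). On log2(TPM + 1) neither PLAUR (log2 fold change -0.28, limma adjusted p = 0.664) nor CD9 (0.93, adjusted p = 0.127) passed. All 3 calls were lost without any 1 knockdown library (adjusted p = 0.0652 to 0.215), and that of CD9 also without control library 1 (0.0707).

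The intracellular side of the adhesion complex held 0 calls among 25 tested activators and adaptors (edgeR, median log2 fold change -0.13), beside 8.31% of all genes. Of the 25, 8 had an unadjusted p under 0.05, beside 26% of all genes tested. DESeq2 called 1 higher and 3 lower of the 25, where it called 17.5% of all genes, and limma-voom with quality weights called 3 higher and 7 lower, where it called 19.1% of all genes. The 4 with the smallest p were the actin adaptor TNS3 (log2 fold change 1.01, adjusted p = 0.055), the parvin PARVB (-0.47, adjusted p = 0.0709) and the talins TLN1 (-0.53, adjusted p = 0.0779) and TLN2 (0.44, adjusted p = 0.0933). TNS3 passed with DESeq2 (adjusted p = 0.00496), PARVB (0.0178) and TLN1 (0.00822) did too, and all 4 passed without control library 2 (0.00295 to 0.0272). TNS3 also passed without control library 3 (0.0415). Of the 9 hemidesmosome genes tested, 1 rose, ITGA6, and 0 fell by edgeR, DESeq2 and limma-voom (median log2 fold change 0.41 in edgeR, 0 lower at an unadjusted p under 0.05). Of all genes, edgeR called 4.59% higher, DESeq2 9.07% and limma-voom 8.76%. The beta4 partner gene of ITGA6 was close to 0 as given above.

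The lists of markers of other cell types differed in whether they separated the groups. Whether these transcripts came from cells of the mouse host or from the UMUC3 cells was not tested. The summed TPM of the 8 smooth muscle markers was 875 to 940 in knockdown and 208 to 394 in control. EdgeR called 4 of the 8 higher, beside 4.59% of all genes. DESeq2 and limma-voom called 6 each, beside 9.07% and 8.76% of all genes. The summed TPM of the fibroblast markers was 58.5 to 74.6 in knockdown and 8.94 to 44.7 in control. Of 5 tested, 1 (PDGFRB) was called higher by edgeR, beside 4.59% of all genes, and LUM was at 0 in all 6 libraries. On the CPM scale the fibroblast sum of tested markers was 158 to 159 in knockdown and 19.1 to 209 in control, so the groups overlapped there. The part of smooth muscle and fibroblast transcripts in the values of ITGA6, ITGB5 and the matrix and membrane genes was not tested. The endothelial sum was 9.64 to 13.3 TPM in knockdown and 8.76 to 46.8 TPM in control, with TIE1 the most abundant. EdgeR called 0 of 7 tested, beside 8.31% of all genes, with 2 at an unadjusted p under 0.05, beside 26%. DESeq2 called 2, beside 17.5% of all genes, and limma-voom 1, beside 19.1%. Platelet markers, the cells best known for ITGB3 with ITGA2B, summed to 0.165 to 0.321 TPM in knockdown and 0 to 0.167 TPM in control, with GP9, PF4 and PPBP at 0 in every library. ITGA2B, the 1 platelet gene tested, did not pass (edgeR adjusted p = 0.0917, unadjusted p = 0.0138).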

How the data were processed

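RNA was measured by bulk RNA-seq; TRIzol was used to isolate RNA and 200 ng went into a VAHTS Universal V6 kit, per the labels' protocols. The submitters' processing notes name Salmon, fastp, DESeq2 and GRCh38; the sources used here do not give versions, annotation, strand setting or any separation of mouse host reads. The authors deposited estimated counts for 21503 genes, written as whole numbers (rounding changed 0 values), and a table of TPM for 60233 genes. The deposited knockdown columns are named with an abbreviation for knockout where the labels say knockdown, and columns were matched by group and number. No symbol was given for 4253 genes with counts.

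All 6 libraries entered edgeR's quasi-likelihood test (edgeR 4.0.16 in R 4.3.3) with filterByExpr (2073 genes removed, 19430 tested), TMM and 2-sided Benjamini-Hochberg adjusted p over all genes at 0.05, without covariates. Totals were 11737837 to 40039584 counts, so 1 count weighs most in control library 3. TPM were tested with limma 3.58.1 as an alternative, and DESeq2 1.42.0 and limma-voom on counts. Ratios used the exact permutation test; of 9 planned pairs, ITGA6 to ITGB4 was not computed because ITGB4 was listed at 0 TPM in control library 3. The edgeR, limma and DESeq2 tests were also run on simulated counts, and the outcome is not reported here. Pairs of libraries within a group differed by 5.87 to 7.40 chi-square units per degree of freedom in knockdown and 117 to 465 in control, so no pair looked like a repeat deposit of 1 library. Libraries were treated as replicates on the strength of their numbering in the labels alone. GENCODE release 29 gave coordinates and overlaps (20986 of 21503 identifiers found).

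The named genes are all 10 members, GANAB, the members of the other integrin and hemidesmosome lists that passed, up to 4 members with the smallest p of each remaining list, and the 3 nearest profiles to each of the 3 members with the smallest p (1 of these profiles is not reported here). The members, gene lists and tests were chosen with earlier results of these data known. Marker genes and ITGB1P1, AC068234.1, AC078883.1 and GALK1 were named after their values were seen.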

Additional observations from a re-analysis of the deposited data

How the results depend on the processing

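The number of genes called, 1614, became 3676 with DESeq2, 3716 with limma-voom quality weights, 828 on log2(TPM + 1), 526 on log2(TPM + 0.1), 46 on log2(TPM + 1) with no filter, and 62 to 5604 when leaving out 1 library each. Of called genes 55.3% were higher in knockdown, against 90.7%, 89.4% and 93.5% on the 3 TPM settings, where the median of all genes moved to 0.23, 0.28 and 0.09 on the log2 scale. The number of integrin subunits called, 2, became 3 with DESeq2 and with limma-voom quality weights, where ITGA3 was added. It became 1 on log2(TPM + 1) and log2(TPM + 0.1), 0 on log2(TPM + 1) with no filter, and 0 to 3 when leaving out 1 library. Their median log2 fold change, 0.04, was 0.34 on log2(TPM + 0.1) and ran from -0.19 to 0.11 when leaving out 1 library. ITGA6 kept its call on TPM with the filter on low values (adjusted p = 0.022 and 0.028) and lost it without (0.0621); ITGB5 lost it on all 3 TPM settings (0.165 to 0.177), as did ITGB2 (0.0951 to 0.223), TNC (0.0801 to 0.116), CD9 (0.127 to 0.177) and PLAUR (0.61 to 0.664, log2 fold change -0.28). ITGA3 reversed on the 3 TPM settings to 0.0037, 0.0039 and 0.0037, ITGB1 to 0.15, 0.15 and 0.15, and HSPD1 to 0.10, 0.10 and 0.10. ITGB3 ran from -0.26 to 0.49 when leaving out 1 library, reversing without control library 3 and, at -0.03, without knockdown library 2. The log2 ratio difference ran from -0.58 to 0.12 for ITGA5 to ITGB1 and from -0.36 to 0.86 for ITGAV to ITGB3, both reversing without control library 2. GANAB passed on log2(TPM + 1) (limma adjusted p = 0.0467). GANAB did not pass on log2(TPM + 0.1) (0.0553) or on log2(TPM + 1) with no filter (0.0877). The cause of these shifts was not tested. Other settings (DESeq2 size factors, upper-quartile scaling, no filter, at least 5 CPM in 3 libraries) kept both integrin calls. ITGB4 had at most 36 counts in any library.

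The replicate block gave 566 genes called, with ITGA6 (adjusted p = 0.043) and ITGB5 (0.041) still past the threshold, while ITGB7, TNC, PLAUR and CD9 lost theirs (0.125, 0.0584, 0.147 and 0.109). Libraries of the same number shared little (correlations of deviations 0.0022 to 0.0218), so the numbers were not taken as pairs.

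Settings added after seeing the data were 2. With TPM rescaled without the most abundant gene of control library 1, 881 genes and 1 integrin subunit (ITGA6) passed, 85.1% of calls were higher and ITGB5 stood at an adjusted p of 0.0542. There the log2 fold changes of ITGB1 and HSPD1 reversed to 0.074 and 0.02 (adjusted p = 0.879 and 0.973). With the knockdown libraries summed to 1 library, 1 gene and 0 integrin subunits passed.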
